A study of Mus musculus with 24 samples.

Results

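Adult intestinal organoids after 30 days of culture were compared with adult intestinal organoids after 3 days of culture, across all genes of a whole-transcriptome array. The 8 adult organoid arrays, 4 at day 30 and 4 at day 3, were taken by their labels out of 24 arrays of 6 groups. The other groups were fetal organoids (from embryonic day 19) at day 30 and day 3, adult intestine and newborn intestine, again with 4 arrays each. All groups were mouse intestine with no treatment named, all organoids were grown in ENR, the standard organoid medium with EGF, Noggin and R-spondin, and total RNA was taken with Trizol. The labels give no strain, genotype or exact age for the adult groups and do not say whether arrays of a group came from separate animals or cultures. The p-values therefore measure the spread between arrays of a group, which may be technical. That spread was pooled over all 24 arrays, fetal organoids and tissue included. Its median residual SD was 0.155, against 0.13 in a fit of the 8 adult organoid arrays alone. Values are log2 signals on the RMA scale, so that a difference of 1 is a 2-fold change, and all differences are day 30 minus day 3.

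Intestinal organoids grow from crypt stem cells embedded in matrix. EGF, Noggin and R-spondin keep the Wnt-driven stem cells dividing, and their daughters become absorptive enterocytes or secretory Paneth, goblet, enteroendocrine and tuft cells. Freshly plated crypts pass through a regenerative state before budding, whereas established cultures are passaged repeatedly away from mesenchyme, immune cells, microbes and food. In bulk RNA, fewer cells of a type and less RNA per cell cannot be told apart.

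The labelled tissue had its markers in all 8 arrays, since Epcam, an epithelial adhesion molecule, lay between 9.70 and 9.95 and Cdx2, the intestinal identity factor, between 8.64 and 8.93. Not all arrays were alike within a group. Day 30 array 3 stood apart from the other day 30 arrays, with a list of 17 glycolysis and hypoxia genes 1.14 above its mean over the 8 arrays, and correlations of 0.993, 0.9895 and 0.989 with the other day 30 arrays against 0.9941 to 0.9958 among those. Day 3 arrays 1 and 3 read higher for genes of immune cells: 214 immunoglobulin genes stood 0.30 and 0.32 above their 8-array mean there and between -0.15 and -0.04 on the other 6 arrays. Day 3 array 1 also stood 0.83 above the mean on 14 mesenchyme and smooth muscle genes and 0.94 above it on 10 pancreatic acinar genes. Its Dcn, the fibroblast proteoglycan decorin, read 8.88, against 4.15, 4.08 and 4.73 on the other day 3 arrays. Its Lum and Ogn read 5.25 and 4.98, against at most 3.5 and 2.51 on those. Not all members stood out so far. The smooth muscle genes Des and Actg2 read 4.55 and 4.83, slightly above the at most 4.47 and 4.78 of those arrays. Tagln, at 5.0 against at most 5.08, was not raised. The mean level of the mesenchyme list ran from 4.91 to 5.0 at day 30 and from 4.96 to 5.91 at day 3, that of the leukocyte list from 4.68 to 4.74 at day 30 and from 4.76 to 5.11 at day 3, and whole adult intestine lay at 6.76 to 7.38 and 6.45 to 6.92 on the same lists. In the leukocyte list, Ptprc, Cd3g, Gzma and Jchain had both group means under the negative control level, whose array medians ran from 3.99 to 4.22. Other members stayed above that level on all 8 arrays, such as Cd3e (4.43 to 4.73), Csf1r (4.74 to 5.01) and Laptm5 (5.13 to 5.61). Jchain, the joining chain of plasma cells, read 2.74 to 3.10 at day 30, against 4.2, 3.38, 4.82 and 3.51 at day 3, so that it stood above that level on day 3 arrays 1 and 3. The part of these arrays in each result below was not tested, and results are given with and without them where that matters.

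**Figure D1:**
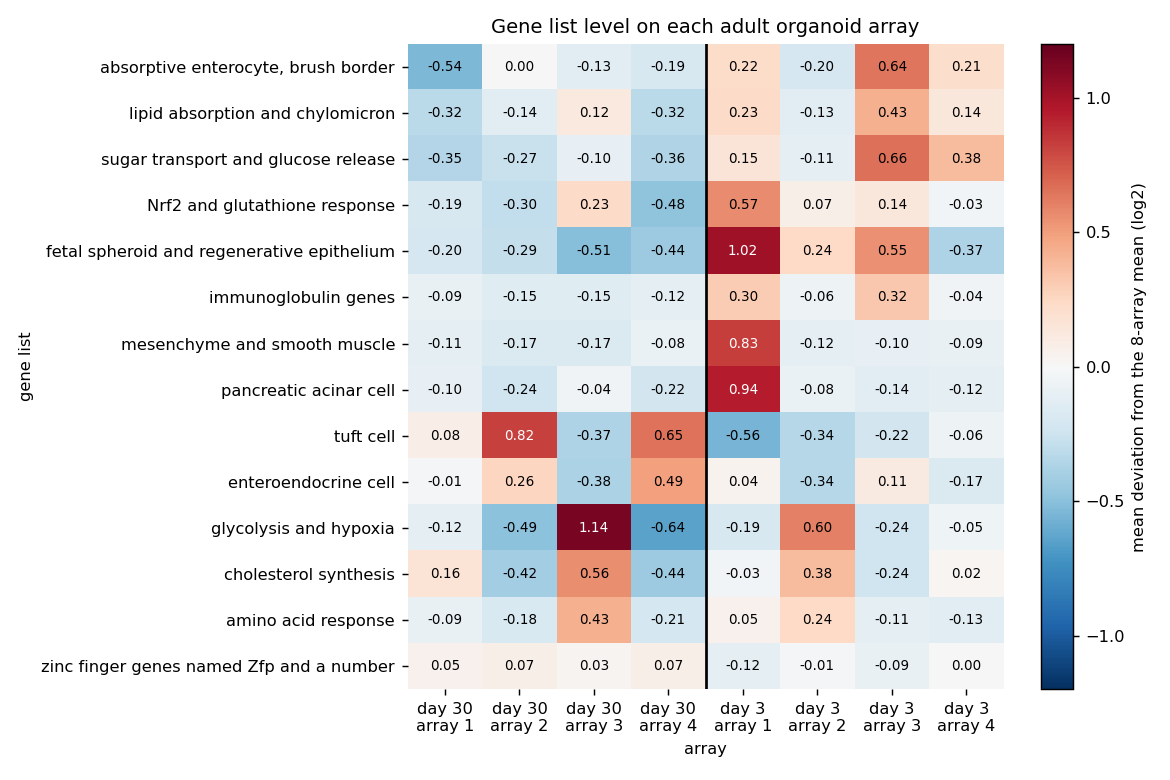
Mean deviation (log2) of 14 gene lists on each of the 8 adult organoid arrays from the mean of the 8, day 30 arrays to the left of the line and day 3 arrays to the right; red is above the mean and blue below. The brush border list was lowest on day 30 array 1 (-0.54) and highest on day 3 array 3 (0.64), the regenerative list was highest on day 3 arrays 1 and 3 (1.02 and 0.55), the tuft list on day 30 arrays 2 and 4 (0.82 and 0.65), and the glycolysis list on day 30 array 3 (1.14).

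Few single genes passed the test over all 30713 genes. At an adjusted p under 0.05, limma called 8 genes higher (0.026%) and 7 lower (0.0228%) at day 30, while 1396 genes were higher (4.55%) and 1187 lower (3.86%) at an unadjusted p under 0.05, together 2583 genes (8.41%). Of these unadjusted calls 54.05% were higher, and 66.31% with each array centred on its median. The differences were small in general, since 5% of genes lay below -0.249 and 5% above 0.246. Larger differences ran downward: 61 genes were at least 2-fold lower (0.199%) and 12 at least 2-fold higher (0.0391%) at day 30. The 4 day 30 arrays lay wholly above the 4 day 3 arrays for 717 genes (2.33%) and wholly below them for 924 genes (3.01%). Without day 30 array 3 the calls came to 114 genes higher (0.371%) and 90 lower (0.293%), with all 15 calls of the full fit among them. Leaving out any other single adult organoid array gave 0 to 15 higher and 3 to 21 lower. The adjusted p-values given below without day 30 array 3 thus come from the omission with the most calls.

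Cyp2r1, the vitamin D 25-hydroxylase, fell at day 30 with the smallest p of all genes. It read 3.82, 3.42, 3.79 and 3.11 at day 30, against 4.76, 4.75, 4.66 and 4.95 at day 3, so that the groups did not overlap. Its log2 difference was -1.25 ± 0.15 (SE, limma adjusted p = 0.00052), which bounds the fall from below, since the day 30 mean lay under the negative control level. Mtarc1, a molybdenum enzyme of the mitochondrial outer membrane, fell by 0.98 ± 0.14 (adjusted p = 0.007), with 5.46, 5.56, 5.52 and 5.27 at day 30 and 6.45, 6.10, 6.92 and 6.27 at day 3. Each day 30 array lay below each day 3 array. Nat8, an enzyme of the acetyltransferase family that finishes mercapturic acids in liver and kidney, fell by 0.67 ± 0.12, with levels of 4.04 to 4.53 at day 30 and 4.84 to 5.24 at day 3. Rilp, the Rab7 effector of late endosomes and lysosomes, fell by 0.52 ± 0.10, with levels of 6.07 to 6.27 at day 30 and 6.65 to 6.87 at day 3. Rps4l, a ribosomal protein S4 retrocopy, fell by 1.42 ± 0.26 but shares sequence with a near-identical copy, so that its signal cannot be given to 1 locus. The other genes that fell, Gm4129 (by 0.95) and 4930415O20Rik (by 0.51), have provisional names.

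Among the genes that rose, Igf2bp3, an oncofetal RNA-binding protein, read 6.68, 6.02, 6.55 and 5.51 at day 30, against 4.88, 5.18, 4.88 and 5.6 at day 3. Day 30 array 4 lay just below day 3 array 4, the one overlap among the 15 called genes, and the log2 difference was 1.06 ± 0.19 (adjusted p = 0.049). Spa17, named for its place in the sperm flagellum, rose by 0.78 ± 0.14, with levels of 6.22 to 6.40 at day 30 and 5.48 to 5.68 at day 3. The transcription factor genes Zfp760, Zbtb18 and Zfp317 rose by 0.60, 0.47 and 0.44. Gm830, a predicted gene, had the largest difference of the called genes, 1.94 ± 0.37, with 5.16 on day 30 array 3 and 6.50 to 7.23 on the other day 30 arrays, against 4.01 to 4.88 at day 3. Bloc1s6os (0.58) and Olfr1169-ps1 (0.40) read near or below the negative control level. Of the 15 called genes, 12 had an adjusted p of 0.049, and 3 (Cyp2r1, Gm4129 and Mtarc1) stayed called with each adult organoid array left out in turn.

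**Figure D2:**
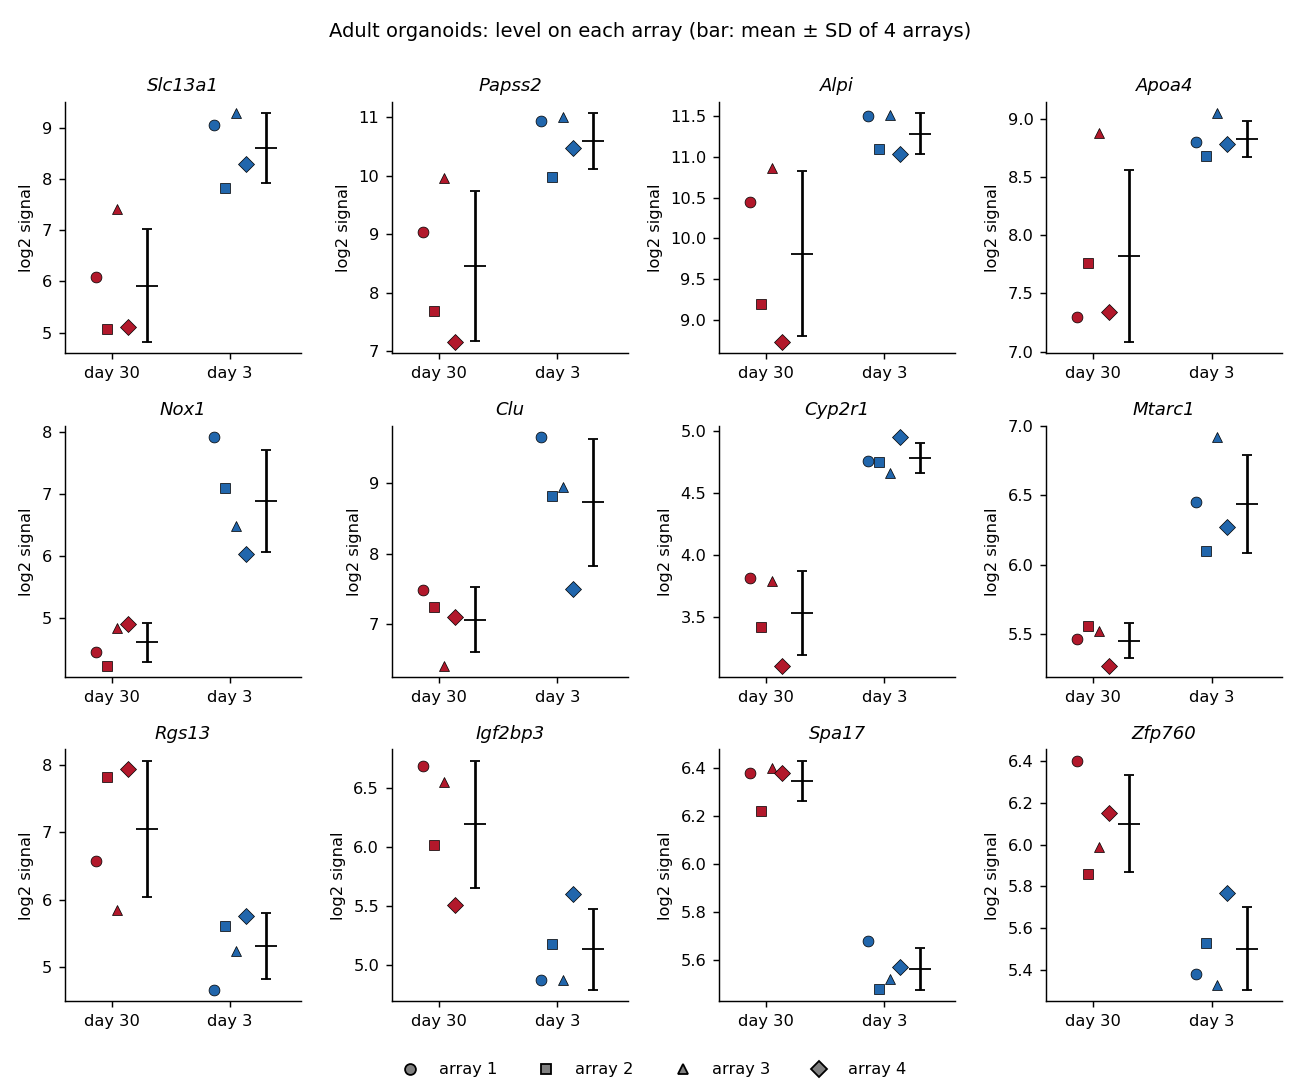
Log2 signal (vertical axes, not starting at 0) of 12 genes on each adult organoid array, day 30 in red on the left and day 3 in blue on the right of each panel; marker shape gives the array number, and bars are the mean ± SD of 4 arrays. Cyp2r1, Mtarc1, Nox1 and Spa17 separated cleanly, while Papss2, Alpi and Apoa4 spread widely at day 30, with array 3 nearest to day 3.

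Many absorptive enterocyte genes were lower at day 30. Of 15 measured brush border genes, 7 were lower and 0 higher at an unadjusted p under 0.05, with a median difference of -0.35, against a median of -0.01 over all genes. Of all genes, 3.86% were lower and 4.55% higher by the same rule, the shares to set beside each list count below. Of 18 lipid absorption genes 10 were lower and 0 higher (median -0.31), and of 16 genes of the proximal small intestine 8 were lower and 0 higher (median -0.35). No member of these lists passed the adjusted threshold with all arrays in the fit. The lists share members, so that their counts are not separate results. Apoa4, Apoa1, Apob and Mttp count as lower in both the lipid and the proximal list. Of lists given below, Slc2a2 and Slc2a5 count again in the sugar list, Cyp3a11 in the drug metabolism list and Slc15a1 among amino acid and peptide transporters. With day 3 arrays 1 and 3 left out, the counts came to 2, 1 and 1 lower, with medians of -0.07, -0.17 and -0.19, while the lower count over all genes came to 534. Some enterocyte genes stayed close: Vil1, which bundles actin in microvilli, lay between 9.60 and 9.92 at day 30 and between 9.61 and 10.01 at day 3. Sis, the sucrase-isomaltase of the brush border, read 10.98, 11.38, 11.36 and 11.46 at day 30 and 11.45, 11.03, 11.48 and 11.31 at day 3.

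Alpi, the intestinal alkaline phosphatase of the enterocyte brush border, read 10.45, 9.19, 10.87 and 8.73 at day 30, against 11.50, 11.10, 11.51 and 11.04 at day 3. All day 30 arrays were below all day 3 arrays, with arrays 2 and 4 lowest. The log2 difference was -1.48 ± 0.30 (adjusted p = 0.066), a 2.79-fold lower level, and without day 30 array 3 it was -1.83 (adjusted p = 0.0036). With another adult organoid array left out, the limma adjusted p of Alpi reached 0.28. Akp3, the duodenal alkaline phosphatase of mouse, read 8.25, 5.89, 8.13 and 5.98 at day 30, against 9.38, 9.19, 8.84 and 8.22 at day 3. Arrays 2 and 4 were again lowest, with a difference of -1.84 ± 0.47 (adjusted p = 0.17, and 0.036 without day 30 array 3). For Akp3 it reached 0.6 with another array left out. Alppl2, the third member of this gene cluster on mouse chromosome 1, was dimmer and lower by less (-0.35 ± 0.09). Slc15a1, the peptide transporter PEPT1, lay at 5.74 to 7.22 at day 30 and 7.22 to 8.66 at day 3 (difference -1.21 ± 0.29, adjusted p = 0.13). Treh, which splits trehalose, and Mme, the membrane peptidase neprilysin, differed by -0.89 ± 0.30 and -0.85 ± 0.33.

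Apoa4, an apolipoprotein of chylomicrons, read 7.30, 7.76, 8.88 and 7.34 at day 30, against 8.80, 8.68, 9.05 and 8.78 at day 3. Day 30 array 3 lay within the day 3 range and the other day 30 arrays below it. The difference was -1.01 ± 0.27 (adjusted p = 0.20), and -1.36 (adjusted p = 0.0067) without that array. With another adult organoid array left out, the limma adjusted p of Apoa4 reached 0.63. Dgat2 and Mogat2, enzymes that rebuild triglyceride after absorption, differed by -0.75 ± 0.23 and -0.64 ± 0.21. Without day 30 array 3, Dgat2 passed the threshold as well (adjusted p = 0.017). Apoa1 differed by -0.54 ± 0.18 and Fabp2, the intestinal fatty acid binding protein, by -0.42 ± 0.18.

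Promoters of genes from these lists were searched for the letters bound by intestinal factors, and those of 4 members that were lower at day 30 are shown because each holds a match to CAAAGTNCA, letters of the kind bound by HNF4, a nuclear receptor of enterocytes. The sequences are the 250 bases before the annotated start (RefSeq, GRCm38.p6), 5′ to 3′ on the gene's strand, with the match in capitals.
Alpi, chr1:87101607-87101856, minus strand: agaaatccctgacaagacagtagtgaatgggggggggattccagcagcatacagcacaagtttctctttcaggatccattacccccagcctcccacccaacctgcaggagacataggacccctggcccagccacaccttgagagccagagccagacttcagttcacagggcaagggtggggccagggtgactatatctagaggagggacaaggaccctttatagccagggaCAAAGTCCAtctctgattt
Apoa4, chr9:46240594-46240843, plus strand: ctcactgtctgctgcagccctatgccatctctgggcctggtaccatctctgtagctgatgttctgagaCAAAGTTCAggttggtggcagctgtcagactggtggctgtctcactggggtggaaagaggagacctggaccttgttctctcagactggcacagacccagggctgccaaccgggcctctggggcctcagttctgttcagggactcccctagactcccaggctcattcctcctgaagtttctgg
Fabp2, chr3:122894822-122895071, plus strand: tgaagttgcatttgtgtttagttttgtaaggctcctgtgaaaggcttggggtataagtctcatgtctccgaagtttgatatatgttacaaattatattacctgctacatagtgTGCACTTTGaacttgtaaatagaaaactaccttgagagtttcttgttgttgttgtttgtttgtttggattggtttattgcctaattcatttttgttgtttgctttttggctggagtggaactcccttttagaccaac
Cyp3a11, chr5:145879855-145880104, minus strand: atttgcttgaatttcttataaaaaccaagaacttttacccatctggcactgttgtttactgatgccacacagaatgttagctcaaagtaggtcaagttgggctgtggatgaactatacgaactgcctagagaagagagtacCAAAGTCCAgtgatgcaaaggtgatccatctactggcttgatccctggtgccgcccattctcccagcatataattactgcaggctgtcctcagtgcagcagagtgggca
On either strand, the motif was present in 8 of 49 genes of the brush border, lipid, proximal and drug metabolism lists that had a promoter in the table (16.3%), namely Abcb1a, Alpi, Apoa4, Cyp2c65, Cyp2d26, Cyp3a11, Fabp2 and Treh, and in 260 of 18262 tested genes with one (1.42%). Of these 8 genes, Abcb1a and Cyp2c65 differed by -0.13 and -0.04 (limma unadjusted p = 0.68 and 0.83), and the others were lower. The HNF4 genes Hnf4a and Hnf4g differed by 0.1 and -0.13 (limma unadjusted p = 0.46 and 0.48). A part of HNF4 in the differences was not tested. In Alpi the match began 19 bases before the start, and in Apoa4 182 bases before it. For 2 CDX motifs, TTTATG and TTTATNG, the shares in the same 49 genes were 16.3% and 22.4%, against 11.0% and 10.3% of all genes. For the GATA motif AGATAA they were 12.2% against 10.2%, and the long HNF1 motif was in 0 of the 49 and in 13 of all. The motifs were chosen after values were seen, and a match is a description of the letters alone.

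Genes of sugar transport and glucose release were lower too. In a list of 11 such genes assembled after values were seen, 6 were lower and 0 higher (median -0.55). Without day 3 arrays 1 and 3, and likewise without day 30 arrays 2 and 4, 2 were lower. Slc5a4b, a member of the sodium-glucose cotransporter family, read 6.81, 6.66, 7.41 and 7.45 at day 30, against 8.80, 7.86, 9.19 and 8.69 at day 3, with no overlap and a difference of -1.55 ± 0.40 (adjusted p = 0.17). Slc2a2, the basolateral glucose transporter GLUT2, differed by -0.85 ± 0.36. Among 16 amino acid and peptide transporters, a list of the same kind, 4 were lower and 0 higher (median -0.23), and 2 were lower without day 3 arrays 1 and 3. Of 17 ion and fluid transport genes 3 were lower (17.6%, against 3.86% of all genes) and 1 higher (5.88%, against 4.55%). The lower ones were Slc9a3, the apical sodium-proton exchanger (-0.99 ± 0.37), Slc26a6, an apical anion exchanger (-0.85 ± 0.23), and the water channel Aqp8 (-0.77 ± 0.26). The higher one was the water channel Aqp1 (0.57 ± 0.26). Of 13 iron, vitamin D and calcium genes 3 were lower and 0 higher, and all 13 differences were negative; without day 30 arrays 2 and 4, 0 were lower. These were Slc40a1, the iron exporter ferroportin (-0.75), Slc11a2, the apical iron importer (-0.51), and Fth1, the ferritin heavy chain (-0.30).

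Genes of sulfate handling and conjugation held several of the largest differences. Slc13a1, the apical sodium-sulfate cotransporter, read 6.09, 5.07, 7.41 and 5.11 at day 30, against 9.05, 7.82, 9.29 and 8.29 at day 3. The groups did not overlap, the difference was -2.69 ± 0.55 (adjusted p = 0.066), a 6.47-fold lower level, and without day 30 array 3 it was -3.19 (adjusted p = 0.0076). Papss2, which makes the active sulfate donor PAPS, read 9.03, 7.68, 9.96 and 7.16 at day 30, against 10.93, 9.97, 11.00 and 10.48 at day 3. Day 30 array 3 lay just below the lowest day 3 array, and the difference was -2.14 ± 0.45 (adjusted p = 0.082, and 0.0044 without that array). Sult6b2, a member of the sulfotransferase family, lay at 5.72 to 7.73 at day 30 and 7.80 to 9.32 at day 3 (-1.78 ± 0.59). In a list of 12 genes of sulfate uptake and activation assembled around these after values were seen, 4 were lower and 1 higher, and the median was -0.03, so that the difference lay in a few members.

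Ugt2b38 and Ugt2b5, which attach glucuronic acid, differed by -1.21 ± 0.31 and -1.19 ± 0.40, and of 11 Ugt genes 4 were lower and 0 higher. Of 91 cytochrome P450 genes, 20 were lower (22.0%) and 1 higher, while their median was -0.07. The largest differences among drug metabolism genes were those of Cyp3a11 (-1.04 ± 0.32), Cyp3a25 (-1.0 ± 0.46), Cyp2b10 (-0.95 ± 0.41) and Cyp2d26 (-0.92 ± 0.30), and 5 of the 16 members of that list were lower and 1 higher (1 lower and 2 higher without day 3 arrays 1 and 3). Those 5 lower members are all Cyp genes and count among the 20 lower Cyp genes too. Nat8f5, related to Nat8, read 6.55, 5.81, 8.09 and 6.53 at day 30, against 9.18, 8.44, 9.23 and 8.76 at day 3. It did not overlap, and its difference was -2.16 ± 0.48 (adjusted p = 0.10, and 0.012 without day 30 array 3). With day 3 arrays 1 and 3 left out, 4 Cyp genes and 2 Ugt genes were lower at an unadjusted p under 0.05. Slc13a1, Papss2 and Alpi then differed by -2.14, -1.77 and -1.26, with unadjusted p of 0.0043, 0.0049 and 0.0031.

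**Figure D3:**
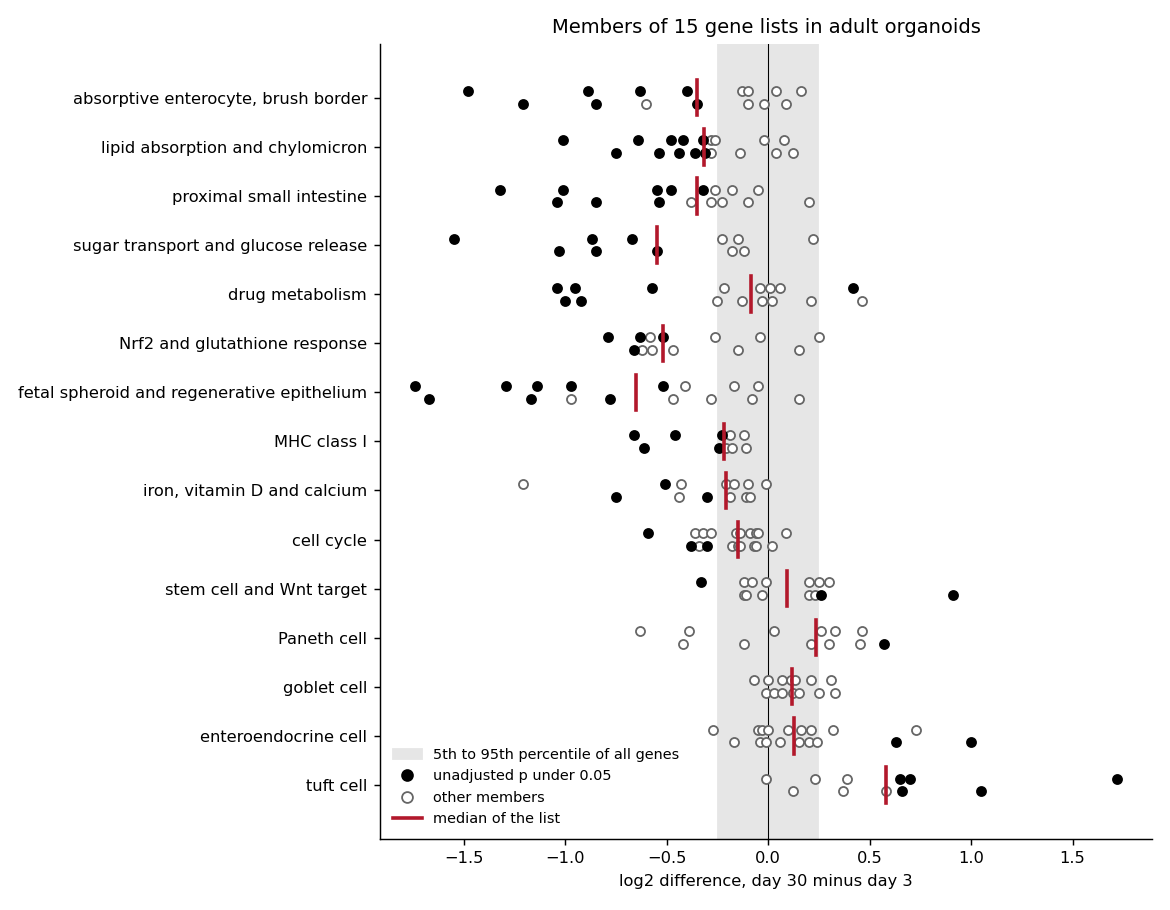
Log2 difference, day 30 minus day 3, of each measured member of 15 gene lists; filled points have an unadjusted p under 0.05, red bars are list medians and the grey band spans the 5th to 95th percentile of all genes (-0.249 to 0.246). Enterocyte, sugar, Nrf2 and regenerative lists extend to the left, with medians between -0.31 and -0.65, and the tuft list to the right, with a median of 0.58.

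Genes of the regenerative, fetal-like epithelial state, which crypts enter after injury, were lower at day 30. Of 16 measured members 8 were lower and 0 higher (median -0.65). Clu, the chaperone clusterin that marks revival stem cells in mouse, read 7.49, 7.25, 6.41 and 7.11 at day 30, against 9.66, 8.82, 8.95 and 7.5 at day 3. Day 3 array 4 lay at the day 30 level and the other day 3 arrays well above it, for a difference of -1.67 ± 0.60 (adjusted p = 0.41). Msln, the surface protein mesothelin, lay at 4.79 to 5.62 at day 30 and read 7.94, 6.13, 7.37 and 5.67 at day 3. S100a6, a calcium-binding protein, and Lgals1, galectin 1, differed by -1.29 ± 0.50 and -1.17 ± 0.37, and Ereg, the EGF receptor ligand epiregulin, by -0.78 ± 0.28. Day 3 arrays 1 and 3, with the higher immunoglobulin signal, were also highest on this list, and with them left out 1 member was lower and the median was -0.27. Of the other day 3 arrays, array 2 stood at 0.24 on this list and array 4 at -0.37, within the day 30 range of -0.51 to -0.20. The part of the immune and mesenchyme signal in this difference was not tested.

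Nox1, an NADPH oxidase of colon and crypt epithelium, read 4.44, 4.22, 4.83 and 4.90 at day 30, against 7.92, 7.10, 6.48 and 6.03 at day 3. Each day 30 array was over 1 log2 unit below each day 3 array, and the difference was -2.29 ± 0.50 (adjusted p = 0.10, and 0.048 without day 30 array 3). Myof, the membrane repair protein myoferlin, lay at 4.72 to 4.94 at day 30 and 5.32 to 7.07 at day 3 (-1.41 ± 0.42), and Otop3, a proton channel, at 5.50 to 6.49 at day 30 and 6.67 to 7.93 at day 3 (-1.2 ± 0.34). Of 13 Nrf2 and glutathione genes, which answer oxidants and electrophiles, 4 were lower and 0 higher, and their median was -0.52. They were Gclc, the rate-limiting enzyme of glutathione synthesis (-0.79 ± 0.35), Ugdh, which makes UDP-glucuronic acid (-0.66 ± 0.24), the quinone reductase Nqo1 (-0.63 ± 0.28) and the sulfiredoxin Srxn1 (-0.52 ± 0.20). Me1, malic enzyme, differed by -1.22 ± 0.43. Without day 3 arrays 1 and 3, 0 of those 13 were lower at an unadjusted p under 0.05 and the median was -0.20. The antioxidant response motif TGACNNNGC was in 3 of 10 promoters of this list, those of Gsta3, Txnrd1 and Ugdh, and in 12.3% of all. It was likewise in 3 of 10 promoters of the regenerative list and 2 of 8 of the tuft list. Shares were 12.5% in the glycolysis list and 4.08% in the 4 enterocyte lists together. Gsta3 and Txnrd1 differed by 0.15 and -0.26 (limma unadjusted p = 0.47 and 0.09), and Ugdh alone of the 3 was lower. Among EGF pathway genes, Egfr, the receptor, differed by -0.36 ± 0.13 and Dusp5, an ERK phosphatase, by -0.44 ± 0.17, with 4 of 19 genes of that list lower and 0 higher. Ereg is among these 4 and counts in the regenerative list too. Without day 3 arrays 1 and 3, 1 was lower and Dusp5 differed by -0.12 (unadjusted p = 0.52).

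Antigen presentation genes had small negative differences. All 10 measured MHC class I genes had negative differences, 5 of them lower at an unadjusted p under 0.05 (median -0.22). Psmb8, a subunit of the immunoproteasome, lay at 5.73 to 5.99 at day 30 and 6.06 to 7.02 at day 3 (-0.66 ± 0.14, adjusted p = 0.082). H2-Q2, H2-Q1 and H2-D1 differed by -0.61, -0.46 and -0.24, although probe sets of these paralogs may share signal. H2-Ab1, an MHC class II chain, lay at 5.84 to 6.06 at day 30 and 6.06 to 7.23 at day 3 (-0.67 ± 0.21). With day 3 arrays 1 and 3 left out, 1 class I gene was lower and the median was -0.10, and 0 of 6 class II genes were lower against 2 with all arrays. Of 14 leukocyte genes 2 were lower (14.3%, against 3.86% of all genes), Cd79a and Jchain, and 0 higher (median -0.15), and without those arrays 1 was lower (median -0.04). Jchain had both group means under the negative control level. Of the 214 immunoglobulin genes 42 were lower and 0 higher, although 109 were under the negative control level on all 8 arrays. Their median was -0.20, and without day 3 arrays 1 and 3 there were 8 lower and the median was -0.06. Ighv1-2, a heavy chain variable segment, read 5.96, 6.03, 5.75 and 6.22 at day 30, against 8.59, 6.42, 9.46 and 7.05 at day 3. Day 3 arrays 1 and 3 were highest, as they were for the mast cell protease Mcpt2 (3.03 to 3.39 at day 30, against 6.69, 3.74, 5.45 and 3.73 at day 3) and for Fabp6, the ileal bile acid binding protein (4.41 to 4.92 at day 30, against 10.30, 6.40, 9.02 and 5.6 at day 3). Among the 20 largest such differences Fabp6 had the largest, -3.16 ± 1.11 (adjusted p = 0.40). The Dcn difference was -1.58 with all arrays and -0.44 with day 3 array 1 left out, and as its day 30 mean, like that of Mcpt2, lay under the negative control level, these are bounds.

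Tuft cell genes pointed the other way. Of 11 measured members 5 were higher and 0 lower at day 30, and the median was 0.58. Rgs13, a G-protein regulator of tuft cells, read 6.57, 7.82, 5.85 and 7.94 at day 30, against 4.67, 5.62, 5.24 and 5.76 at day 3. All day 30 arrays were above all day 3 arrays, with array 3 by little, for a difference of 1.72 ± 0.44 (adjusted p = 0.17, and 0.026 without day 30 array 3). Dclk1, the kinase that marks tuft cells, read 6.29, 7.43, 5.34 and 7.31 at day 30 and 5.28 to 5.96 at day 3, so that the groups overlapped through array 3 (1.05 ± 0.44). Pou2f3, the factor tuft cells need, and Trpm5, their taste channel, differed by 0.70 ± 0.23 and 0.66 ± 0.25. Day 30 arrays 2 and 4 carried most of this signal, and with both left out 0 members were higher and the median was 0.08. The same 2 arrays had the lowest alkaline phosphatase levels, and they read highest for Gcg, which encodes proglucagon (6.71, 8.31, 6.19 and 9.02 at day 30, against 6.67, 6.12, 6.82 and 6.62 at day 3), and for Osr2 (6.39, 8.43, 6.10 and 8.83 at day 30, against 5.87, 5.97, 6.34 and 6.25 at day 3), a zinc finger factor of the distal list. Of 18 enteroendocrine genes 2 were higher (11.1%, against 4.55% of all genes) and 0 lower. The higher ones were Gcg (1.00 ± 0.45) and Isl1, an endocrine lineage factor (0.63 ± 0.18), and 0 were higher without day 30 arrays 2 and 4. Pdx1, the duodenal homeobox factor, lay at 5.05 to 5.92 at day 30 and 5.97 to 6.03 at day 3 (-0.52 ± 0.15), with arrays 2 and 4 again lowest; it was chosen after its values were seen. Among 13 measured regional factors, a list of the same origin, 1 was higher and 1 lower (7.69% each), with a median of 0.03.

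Stem cell genes differed little on balance, and most cell cycle genes had small negative differences. Lgr5, the Wnt-driven stem cell receptor, read 8.67, 8.71, 8.47 and 8.91 at day 30, against 6.91, 8.33, 7.23 and 8.63 at day 3. The day 30 arrays were tight and high, while day 3 arrays 1 and 3 were low, for a difference of 0.91 ± 0.40 (adjusted p = 0.52). Without day 3 arrays 1 and 3 it was 0.21 (unadjusted p = 0.63). Of 14 stem cell and Wnt target genes 2 were higher, Lgr5 and the Wnt feedback ligase Znrf3 (0.26 ± 0.11), and 1 was lower, the receptor Tnfrsf19 (-0.33 ± 0.09), and without day 3 arrays 1 and 3 the list had 0 higher and 1 lower. Olfm4, a crypt base glycoprotein, differed by -0.11 ± 0.26 and Mki67, the proliferation antigen, by -0.16 ± 0.21. Of 19 cell cycle genes 3 were lower (15.8%, against 3.86% of all genes) and 0 higher, and 17 differences were negative (median -0.15). The lower ones were cyclin E1, Ccne1 (-0.59 ± 0.21), Aurora kinase A, Aurka (-0.38 ± 0.18), and survivin, Birc5 (-0.30 ± 0.12). Without day 30 arrays 2 and 4, 0 were lower (median 0.04). The count was 5 without day 30 array 3 (median -0.21) and 2 without day 3 arrays 1 and 3 (median -0.23). Lyz1, the Paneth cell lysozyme, differed by -0.39 ± 0.32. Of 12 Paneth genes only Habp2 (0.57 ± 0.20) was higher (8.33%, against 4.55% of all genes). None of 14 goblet genes passed an unadjusted p of 0.05 in limma, and the median was 0.12.

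The 20 largest positive differences among genes with non-overlapping arrays were smaller than the largest negative ones and had mixed functions. Beside those already given they included the secretoglobins Scgb2b20 (0.97 ± 0.19) and Scgb2b10 (0.71 ± 0.16), the histone gene H2bc21 (0.85 ± 0.26), Triqk (0.83 ± 0.23, a bound, since its day 3 mean lay under the negative control level), Tbc1d19 (0.81 ± 0.16), Gsdmc4 (0.70 ± 0.60), Tfpi2, a Kunitz protease inhibitor (0.68 ± 0.23), Mctp2 (0.68 ± 0.16), Rwdd3 (0.67 ± 0.14), the plasminogen receptor Plgrkt (0.65 ± 0.13), the G-protein subunit Gng11 (0.64 ± 0.13), the secreted ribonuclease Rnase1 (0.64 ± 0.21), Epb41l4a (0.63 ± 0.20), Dnajb7 (0.61 ± 0.16) and Prkab2, the beta 2 subunit of AMP-activated kinase (0.61 ± 0.16). Without day 30 array 3, Plgrkt had an adjusted p of 0.0083, Tbc1d19 of 0.013, Scgb2b20 and Rwdd3 of 0.017 and Mctp2 of 0.023. None of these genes passed the adjusted threshold with all arrays in the fit. With day 3 array 1 or day 3 array 3 left out instead, 0 genes of the whole array were called higher.

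The let-7d hairpin was also among them. Let-7 miRNAs accumulate as tissues mature and silence growth genes, and their precursors are uridylated by Tut4 when LIN28 is bound. Its 2 mature miRNAs are shown with the seed, bases 2 to 8, in capitals (RefSeq, GRCm38.p6), since the seed sets which mRNAs a miRNA can pair with, and all 8 distinct let-7 5p sequences of the table share the first of these seeds.
mmu-let-7d-5p, chr13:48536078-48536099, minus strand: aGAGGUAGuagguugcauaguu
mmu-let-7d-3p, chr13:48536024-48536045, minus strand: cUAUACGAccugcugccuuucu
Mirlet7d read 5.46, 6.01, 5.49 and 5.91 at day 30, against 4.77, 4.88, 5.10 and 5.20 at day 3. The groups did not overlap, and the difference was 0.73 ± 0.16 (adjusted p = 0.10, and 0.034 without day 30 array 3). The array measures hairpin or primary transcript signal, not the mature miRNA. Of 11 let-7 hairpins measured, 2 were higher at an unadjusted p under 0.05 and 0 lower, the other 10 differed by -0.10 to 0.28, and 5 had both group means under the negative control level. Tut4 itself read 6.06, 6.56, 5.94 and 6.45 at day 30, against 5.67, 5.73, 5.57 and 5.73 at day 3 (0.58 ± 0.15, adjusted p = 0.17). Among 10 measured oncofetal and imprinted growth genes, Igf2bp3 and Plagl1, an imprinted zinc finger factor (0.36 ± 0.14), were higher and none was lower at an unadjusted p under 0.05.

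Many zinc finger genes had small positive differences. Of 364 protein-coding genes named Zfp and a number, a family chosen after values were seen, 75 were higher (20.6%) and 3 lower (0.824%) at an unadjusted p under 0.05, and 262 had positive differences, although the median was only 0.08. At the adjusted threshold 2 of them rose. The 8 arrays gave family means of 0.05, 0.07, 0.03 and 0.07 around the 8-array mean at day 30, against -0.12, -0.01, -0.09 and 0.00 at day 3. The day 3 deviations were largest on arrays 1 and 3, and with these left out 20 genes were higher and 3 lower (median 0.05). Over all 30713 genes, 501 were higher and 534 lower with the same arrays left out. With arrays centred on their median the family median was 0.11. Ribosomal protein genes, another abundant family, had 3 of 51 higher (5.88%) and 1 lower (1.96%), with a median of 0.07. Over all genes the shares were 4.55% higher and 3.86% lower, so that the ribosomal share of higher genes was near that of all genes.

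**Figure D4:**
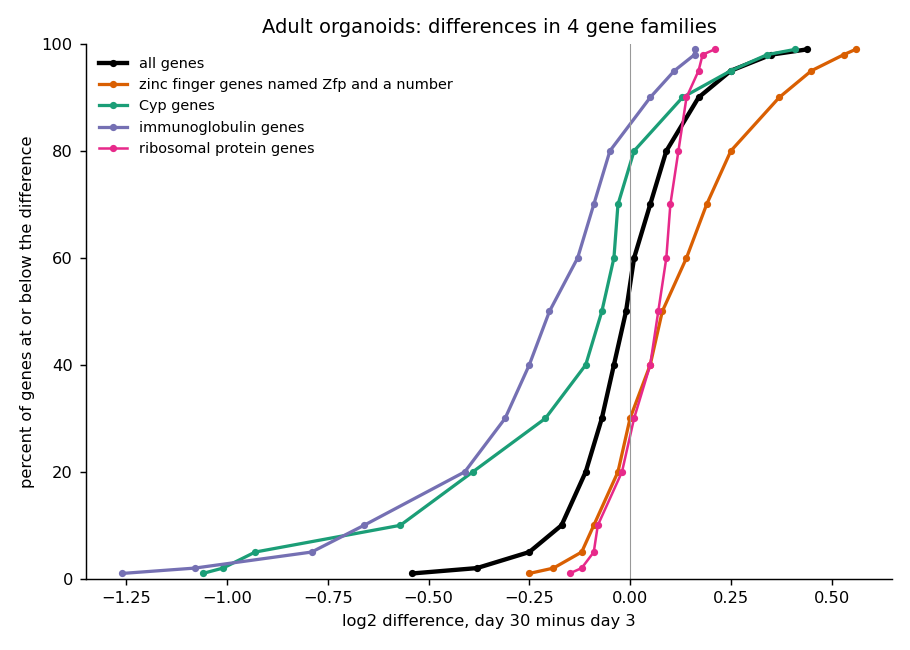
Percent of genes (vertical axis) at or below each log2 difference, day 30 minus day 3 (horizontal axis), drawn through 15 percentiles for all genes and for 4 families. The zinc finger curve lies slightly to the right of that of all genes (median 0.08 against -0.01), and the immunoglobulin curve to the left (median -0.20).

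Glycolysis and hypoxia genes differed more between arrays of a group than between groups. Their median difference was -0.11 and 0 of 17 members passed an unadjusted p of 0.05 in the full limma fit, while 5 were lower and 0 higher without day 30 array 3. Ankrd37, a target of hypoxia-inducible factor, read 7.79, 6.75, 10.34 and 6.52 at day 30, against 7.38, 9.55, 7.36 and 7.99 at day 3. Ero1a, the oxidase of the endoplasmic reticulum, read 7.86, 7.23, 10.47 and 7.07 at day 30, against 8.37, 9.29, 7.74 and 7.91 at day 3. Day 30 array 3 and day 3 array 2 were the highest arrays of their groups for both genes, and for Adm, which encodes adrenomedullin (8.68 and 7.68 on those 2 arrays). These genes were chosen after their values were seen. Both arrays were also highest of their groups on the cholesterol synthesis list (0.56 and 0.38) and the amino acid response list (0.43 and 0.24). The promoters of Ankrd37 and Ero1a are shown because both hold ACGTGC, a hypoxia response motif that 9 of 16 promoters of the list (56.2%) and 6.24% of all carry on either strand; the shorter ACGTG, which overlaps it, was in 13 of 16 and in 20% of all. The match is in capitals, and the 250 bases run 5′ to 3′ on the gene's strand (RefSeq, GRCm38.p6).
Ankrd37, chr8:45999851-46000100, minus strand: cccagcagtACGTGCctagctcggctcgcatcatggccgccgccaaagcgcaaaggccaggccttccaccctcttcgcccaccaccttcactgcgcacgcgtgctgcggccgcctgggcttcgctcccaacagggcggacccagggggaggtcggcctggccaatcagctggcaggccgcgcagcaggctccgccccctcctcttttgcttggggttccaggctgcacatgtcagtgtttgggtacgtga
Ero1a, chr14:45318573-45318822, minus strand: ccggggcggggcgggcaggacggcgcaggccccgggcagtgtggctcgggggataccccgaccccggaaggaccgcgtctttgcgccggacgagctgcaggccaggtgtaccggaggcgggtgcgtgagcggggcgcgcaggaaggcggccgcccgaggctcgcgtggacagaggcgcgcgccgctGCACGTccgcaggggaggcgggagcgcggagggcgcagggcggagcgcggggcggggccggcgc

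The same culture difference was tested against that of fetal organoids, which shares no arrays with the adult one. The adult culture difference differed from the fetal one for 917 genes (2.99%; 605 or 1.97% with a positive and 312 or 1.02% with a negative difference) at an adjusted p under 0.05. In fetal organoids 15.53% of genes were called between day 30 and day 3. Slc13a1 averaged 5.92 ± 1.10 at day 30 and 8.61 ± 0.68 at day 3 in adult organoids, and 5.94 ± 1.14 at day 30 and 5.25 ± 0.68 at day 3 in fetal organoids (SD, n = 4 each). The culture differences thus differed by -3.39 ± 0.77 (limma adjusted p = 0.014). Nat8f5 showed the same order, with -2.16 in adult organoids and 1.2 in fetal organoids, and a difference between them of -3.36 ± 0.68 (adjusted p = 0.0054). Of the called genes, Igf2bp3 differed by 1.06 in adult and -0.17 in fetal organoids, where it averaged 8.05 ± 0.18 at day 30 and 8.22 ± 0.20 at day 3, and the difference between them was 1.22 ± 0.27 (adjusted p = 0.011). Cyp2r1 differed by -1.25 in adult and -0.46 in fetal organoids (-0.79 between them, adjusted p = 0.036). Nat8, Gm4129 and Bloc1s6os also differed between adult and fetal organoids, while Mtarc1 (-0.98 in adult and -0.57 in fetal organoids) and Spa17 (0.78 in adult and 0.63 in fetal organoids) did not pass that test (adjusted p = 0.38 and 0.83).

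Several enterocyte genes were higher at day 30 than at day 3 in fetal organoids and not in adult organoids. Cyp3a11 differed by -1.04 in adult organoids and 4.34 in fetal organoids, with a day 3 fetal mean of 4.13 ± 0.17, and the difference between them was -5.39 ± 0.46 (adjusted p = 3e-07). Treh differed by -0.89 in adult and 2.41 in fetal organoids (-3.30 ± 0.43, adjusted p = 6.2e-05). Sis differed by -0.02 in adult and 4.76 in fetal organoids (-4.78 ± 0.47, adjusted p = 1.8e-06), and Arg2, the mitochondrial arginase, by -0.69 in adult and 3.01 in fetal organoids (-3.70 ± 0.48, adjusted p = 6.2e-05). Alpi and Papss2 did not pass the test of the difference (adjusted p = 0.47 and 0.079). Lgals1 was lower with time in both, by -1.17 in adult and -4.30 in fetal organoids (3.13 between them, adjusted p = 0.00091), and Fcgrt, the neonatal Fc receptor, differed by -0.37 in adult and -1.81 in fetal organoids (1.43 between them, adjusted p = 0.032). None of the 11 tuft genes differed in this test. In whole adult intestine Alpi averaged 11.78 ± 0.18, Slc13a1 8.47 ± 0.96 and Papss2 10.12 ± 0.76 (SD, n = 4), each nearer to the mean of day 3 than to that of day 30 adult organoids. Others lay nearer to day 30: adult intestine averaged 7.21 ± 0.59 for Akp3, 5.91 ± 1.53 for Sult6b2, 6.18 ± 0.69 for Ugt2b38 and 6.92 ± 1.15 for Ugt2b5 (SD, n = 4).

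**Figure D5:**
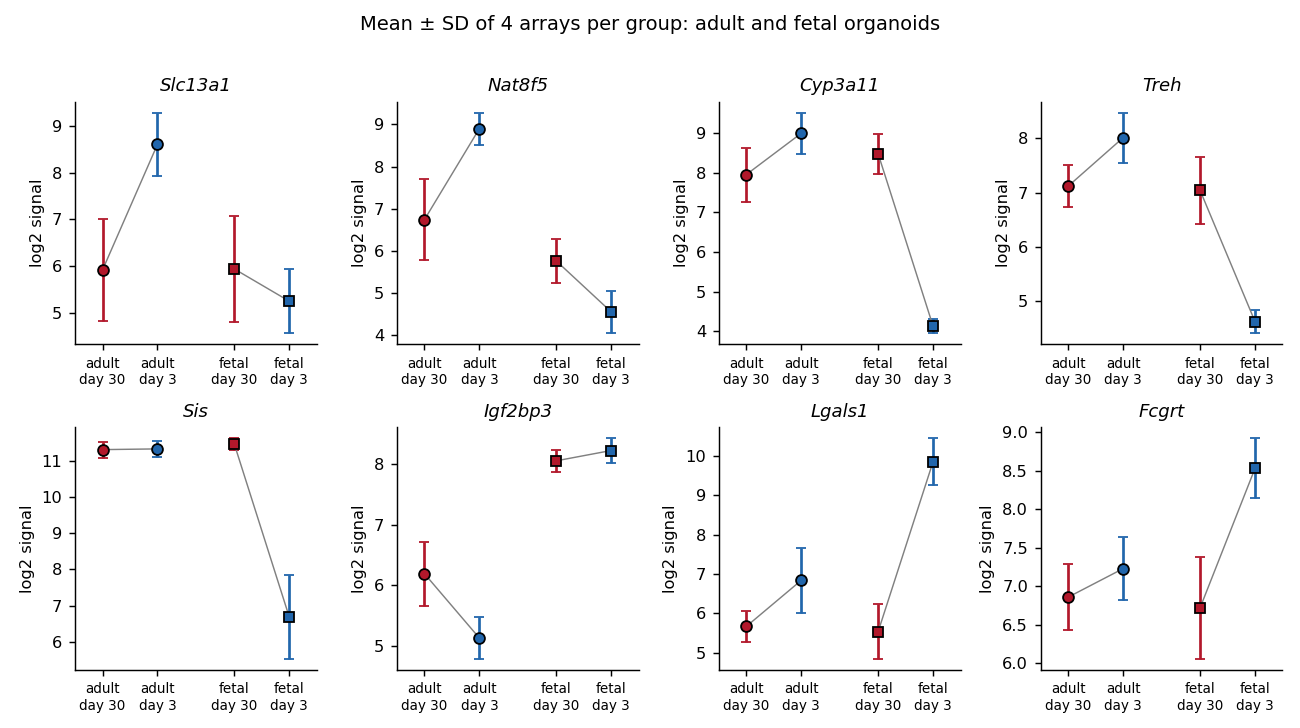
Mean log2 signal ± SD of 4 arrays (vertical axes, not starting at 0) of 8 genes in adult organoids at day 30 and day 3 (circles) and in fetal organoids at day 30 and day 3 (squares). Slc13a1 and Nat8f5 were lower at day 30 than at day 3 in adult organoids, where the fetal means were higher at day 30, and Cyp3a11, Treh and Sis were far higher at day 30 than at day 3 in fetal organoids.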

How the data were processed

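Signal was measured on 24 one-colour Affymetrix arrays from 1 µg of total RNA each. Per the submitters' processing notes, the authors made the deposited log2 values with Affymetrix Expression Console and RMA (background correction, quantile normalization and summary of probe sets, versions not given in the sources used here). Of 72688 probe sets, 31269 name 1 gene in the platform annotation. For the 441 genes with several probe sets the brightest was used, which left 30713 genes, and 1774 probe sets had their symbol updated. The number of arrays limits the precision, and negative control probe sets give the background.

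A model of 6 group means was fitted to all 24 arrays with limma 3.58.1 (lmFit, eBayes, 18 residual and 4.25 prior degrees of freedom) in R 4.3.3. Tests were two-sided, and p-values were adjusted with Benjamini-Hochberg over all genes. The same fit gave the adult minus fetal difference. The fit was tested on simulated data with known shifts. Standard errors are those of the moderated fit. "Higher" and "lower" in counts of list members mean an unadjusted p under 0.05; "rose" and "fell" mean an adjusted p under 0.05. Gene lists are described by counts and medians with no set test.

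The comparison, gene lists and rules were chosen with earlier results of these data known; 46 gene lists were written with the design, and 11 lists and families, the let-7 hairpins and the promoter motifs were added after values were seen. Genes were named if called, if among the 20 largest rises or falls with non-overlapping arrays and a higher mean above the negative controls, if among up to 4 largest per list, or if on a fixed panel; Akp3, Alppl2, Fabp2, Pdx1 and the hypoxia genes were named after their values were seen. Same-numbered day 30 and day 3 replicates were not paired: their deviations from the group means correlated at -0.02, -0.29, -0.19 and 0.18. Alternatives were other probe set, filter, prior, sample, centring, normalization, weighting, block and threshold settings, and leaving out arrays.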

Additional observations from a re-analysis of the deposited data

Results flagged for a closer look

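Single arrays stood far from the other 3 of their group for 7 genes, out of 222 groups of 4 values looked at, where chance alone flags about 1 group in 20. At day 30 these were array 4 for Bloc1s6os (4.07) and Slc26a6 (6.66), array 1 for Cyp3a11 (6.93), array 2 for Msln (5.62) and Spa17 (6.22), and array 3 for Plgrkt (6.91). At day 3 it was array 1 for Dcn (8.88), the array on which the mesenchyme and acinar lists were highest.

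The culture difference in adult organoids differed from that in fetal organoids, by the limma test of the difference itself at an adjusted p under 0.05, for 27 of the 111 genes looked at. Over all genes it did so for 917 of 30713 (2.99%). Many of the 111 were named for the size of their adult difference, which enters this test. Their share can therefore not be compared with that of all genes. Adult minus fetal, enzymes and transporters of enterocytes stood at -5.39 for Cyp3a11, -4.78 for Sis, -4.67 for Cyp3a25, -3.70 for Arg2, -3.55 for Slc5a4b, -3.47 for Adh6a, -3.39 for Slc13a1, -3.36 for Nat8f5 and -3.30 for Treh. Smaller values of the same sign were those of Cyp2b10 (-3.11), Cyp2d26 (-2.59), Aqp1 (-2.35), Mme (-1.99), Slc26a6 (-1.56), Gm4129 (-0.89), Cyp2r1 (-0.79) and Nat8 (-0.75). The crypt genes Lyz1, Olfm4 and Tnfrsf19 stood at -1.80, -1.70 and -0.48. Positive values were those of Lgals1 (3.13), Fcgrt (1.43), Igf2bp3 (1.22), Plagl1 (0.98), Gng11 (0.88), Bloc1s6os (0.84) and Plgrkt (0.81).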

How the results depend on the processing

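The number of genes passing the adjusted threshold was unstable. Against 8 higher and 7 lower, limma called 1 and 0 with the 8 adult organoid arrays alone, 0 and 3 with the 16 organoid arrays, 2 and 4 once each array was centred, 0 and 3 with quantile normalization run again over the 24 arrays, 1 and 0 after quantile normalization of the 8 arrays alone, and 203 and 169 with array weights. At an adjusted p under 0.01 there were 0 and 3, and at one under 0.1 there were 21 and 23. With the replicate number as a block, in the 8 arrays, 0 and 0 passed, with 1345 higher and 1424 lower at an unadjusted p under 0.05. Leaving out 1 array gave 0 to 114 higher and 3 to 90 lower. The highest counts came without day 30 array 3; without day 3 array 2 they were 15 and 21, and without day 3 array 1 or array 3 none was higher. In 2 alternatives chosen after seeing the data, leaving out day 3 arrays 1 and 3 gave 0 higher and 2 lower, and leaving out day 30 arrays 2 and 4 gave 2 and 2.

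The unadjusted counts of 1396 higher and 1187 lower came to 2411 and 2307 with array weights, 501 and 534 without day 3 arrays 1 and 3, 851 and 539 without day 30 arrays 2 and 4, and 850 to 1856 and 749 to 1806 with 1 array left out. The 917 adult minus fetal calls came to 540 with a replicate block within each age, 1400 with array weights and 640 to 1316 with 1 array left out. Brush border members lower, 7, came to 4 with the 8 arrays alone, 4 after their own quantile normalization, 4 with the replicate block, 2 without day 3 arrays 1 and 3, and 3 to 8 with 1 array left out. Lipid absorption members lower, 10, came to 6 with 16 arrays, 1 without day 3 arrays 1 and 3, 3 without day 30 arrays 2 and 4, and 4 to 11 with 1 array left out. Regenerative members lower, 8, came to 1 and 4 without those pairs of arrays and to 4 to 10 with 1 array left out. Tuft members higher, 5, came to 3 with 16 arrays, 9 with array weights, 1 without day 3 arrays 1 and 3, 0 without day 30 arrays 2 and 4, and 2 to 8 with 1 array left out.

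Over 111 genes and 2434 pairs of a gene and a setting, 6 changed sign, in 2 genes. Gcg was at -0.10 without day 30 arrays 2 and 4. Sis, at -0.02 with all arrays, was at 0.00 with centring, 0.13 without day 3 arrays 1 and 3, and between -0.12 and 0.09 with 1 array left out, positive without day 30 array 1 (0.09), day 3 array 1 (0.02) or day 3 array 3 (0.03). A call was lost in 186 pairs and gained in 84. The cause was not tested.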
